A study of Mus musculus with 6 samples.

Results

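The genes described here set the electrical excitability of the skeletal muscle membrane. They were the 8 genes Clcn1, Scn4a, Kcnj2, Kcnj11, Kcna7, Atp1b1, Atp1b2 and Fxyd1, taken by name from the mouse genes of the deposited table, and each matched a single one of its 52550 mouse gene rows. RNA came from the quadriceps of 3 male FLExDUX4 mice and 3 male WT mice, all labelled 13 weeks old, whereas the study's methods give the triceps of younger mice for this experiment. FLExDUX4 mice are hemizygous for a human DUX4 transgene at the Rosa26 locus, placed backwards between lox sites. No Cre driver was part of the genotype, so that DUX4, the transcription factor misexpressed in facioscapulohumeral muscular dystrophy, comes only from low leaky transcription and no muscle-specific driver confines it. WT mice carry no transgene. The transgene could not be checked, because the table's features are mouse genes and spike-in RNAs, and its 4 rows whose names begin with Dux, the mouse relatives, hold 0 counts in both groups.

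A muscle fiber fires when its voltage-gated sodium channel opens, and potassium channels then bring the membrane back. The resting membrane is held by a large chloride conductance and by inward rectifier potassium channels, while the sodium pump restores the ion gradients that each action potential runs down. Inherited defects of the chloride, sodium and inward rectifier channels cause myotonia, in which fibers relax too slowly, or periodic paralysis, in which they cannot be excited.

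The assay was QuantSeq, which reads the 3′ end of polyadenylated RNA, so that a transcript gives about the same number of reads whatever its length. Counts of different genes were therefore compared without dividing by length. How completely the 3′ end of each gene was counted was not checked, and levels of different genes also depend on it. The values are raw counts summed over the mice of a genotype. They came to 13110125 counts on genes for FLExDUX4 and 18367364 for WT, and the 8 genes took 0.102% and 0.108% of them. The table also holds counts of single samples, but under names that match no sample label, so they were not used and no spread between mice and no test is given. The values below are totals scaled by edgeR's TMM method, in CPM (the count of a gene for each 1000000 scaled counts on genes), and log2 ratios of FLExDUX4 to WT with a 95% interval that covers counting error only. The interval left out 0 for 41.1% of the 13396 genes compared, so an interval clear of 0 is common in this table. Skeletal myofiber markers were abundant in both groups, with summed levels of 97296 CPM in FLExDUX4 and 97636 CPM in WT over 8 markers.

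In the muscle of FLExDUX4 mice, most of the excitability genes had totals close to those of WT mice, and the sodium channel gene Scn4a and the potassium channel gene Kcna7 stood furthest from equality. Scn4a was 2.02-fold lower in FLExDUX4 than in WT, and Kcna7, which had few counts, was 2.17-fold higher. Clcn1 and Kcnj11 were lower by nearly the same factor, with log2 ratios of -0.25 and -0.24. The other 4 genes, Kcnj2, Atp1b1, Atp1b2 and Fxyd1, had intervals that held 0. At a change of at least 1.5-fold, 1 of the 8 genes was higher, against 13.2% of all genes compared, and 1 was lower, against 13.5%. The interval lay above 0 for 1 gene and below 0 for 3 genes, against 20.5% and 20.6% of all genes. The median log2 ratio of the 8 genes was -0.07, and that of all genes compared was -0.001. These shares and medians do not set the 8 genes apart from the rest of the table. In whole muscle, fewer cells of a type and less RNA per cell cannot be told apart.

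The spike-in RNAs were more abundant relative to mouse genes in FLExDUX4, and scaling the totals to them shifted every log2 ratio by -0.28. Under that scaling 7 of the 8 genes had ratios below 0, and the 2 genes past 1.5-fold were again Scn4a, with a ratio of -1.29, and Kcna7, with 0.84. The intervals moved with the ratios, so that with spike-in scaling 0 of the 8 lay above 0, with that of Kcna7 then holding 0, and 7 lay below, against 7.59% and 47.1% of all genes. The intervals of Atp1b2 and Fxyd1 end so close to 0 that smaller shifts also placed them below it.

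**Figure D1:**
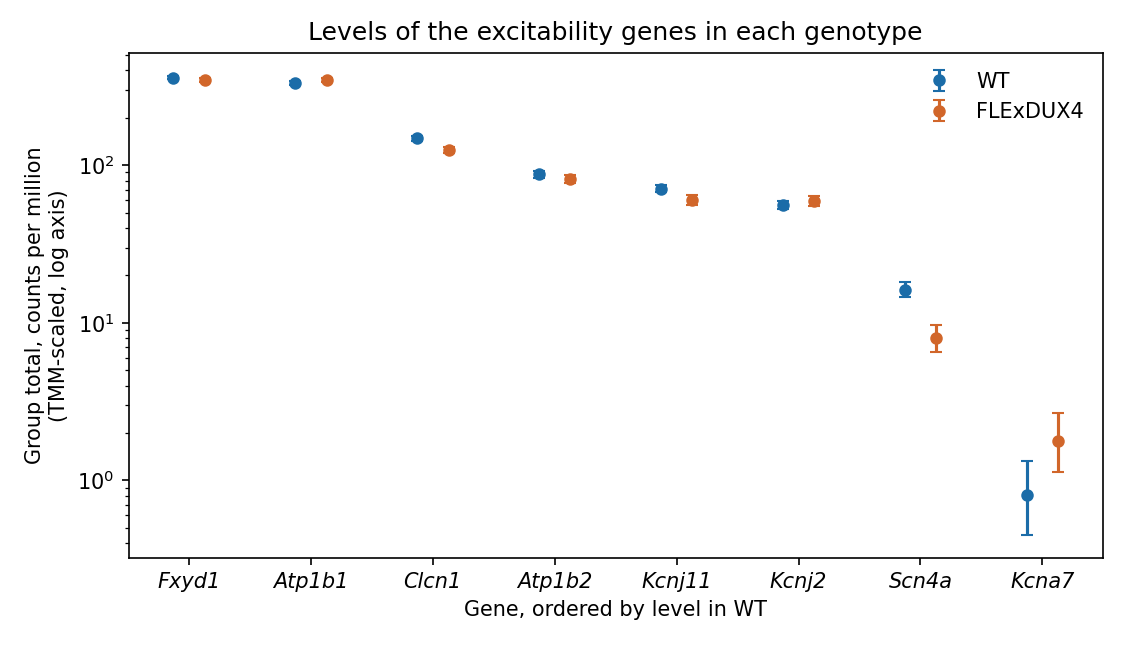
Group totals of the 8 excitability genes in TMM-scaled CPM on a log axis, in WT (blue) and FLExDUX4 (orange), with 95% Poisson intervals that cover counting error only. The levels run from 360.2 CPM for Fxyd1 to 0.808 CPM for Kcna7 in WT, and the groups are furthest apart for Scn4a and Kcna7.

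The order of the 8 levels was the same in both genotypes. In WT it ran from Fxyd1 at 360.2 CPM through Atp1b1 at 333 CPM, Clcn1 at 149 CPM, Atp1b2 at 87.7 CPM, Kcnj11 at 71.1 CPM, Kcnj2 at 56.0 CPM and Scn4a at 16.3 CPM to Kcna7 at 0.808 CPM. No neighbours in that order had overlapping counting intervals. In FLExDUX4, Fxyd1 (349 CPM) and Atp1b1 (345 CPM) had overlapping intervals, as had Kcnj11 (59.96 CPM) and Kcnj2 (59.3 CPM).

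Clcn1 encodes the muscle chloride channel, whose loss causes myotonia congenita, and Kcnj2 encodes the inward rectifier that holds the resting potential and is mutated in Andersen-Tawil syndrome. Both set the resting conductance. With TMM scaling their ratios had opposite signs, though the interval of Kcnj2 held 0, and with spike-in scaling both ratios were below 0. The RefSeq sequence of GRCm38.p6 for the 250 bases before each start is shown for this pair, since here the RefSeq start and the start in the deposited table are the same base. Clcn1 lies at chr6:42286435-42286684 on the plus strand and Kcnj2 at chr11:111065914-111066163 on the plus strand. Capitals mark the E-box CANNTG, the class of site bound by myogenic and clock factors, which reads as CANNTG on either strand and includes CAGCTG, and the TATA box TATAAA, searched on both strands.
Clcn1: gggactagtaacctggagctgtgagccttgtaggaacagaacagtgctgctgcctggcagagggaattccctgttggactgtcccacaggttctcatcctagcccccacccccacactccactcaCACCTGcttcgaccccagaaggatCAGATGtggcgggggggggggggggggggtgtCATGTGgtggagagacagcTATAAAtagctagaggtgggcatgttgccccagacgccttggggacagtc
Kcnj2: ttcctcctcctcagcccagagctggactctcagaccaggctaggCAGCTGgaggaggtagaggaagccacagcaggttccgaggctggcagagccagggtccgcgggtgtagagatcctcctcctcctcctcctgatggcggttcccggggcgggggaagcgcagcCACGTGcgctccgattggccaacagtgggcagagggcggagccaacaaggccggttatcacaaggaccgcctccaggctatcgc
The Clcn1 window held 3 E-boxes and 1 TATA box, and the Kcnj2 window held 2 E-boxes, with the letters CAGCTG and CACGTG, and no TATA box. The window of Atp1b1, on the minus strand, also lies directly before the annotated start of its gene. It is not shown and held 0 E-boxes and 0 TATA boxes. Of 32851 mouse promoter windows of this length, 66.2% held an E-box, 13.0% held CAGCTG and 12.4% held a TATA box. A match of letters is a description, and binding was not measured.

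Clcn1 (ENSMUSG00000029862), at 42286685 to 42315756 on chromosome 6 of GRCm38, had 1625 counts in FLExDUX4 and 2761 in WT, or 125 and 149 CPM. This gave a ratio of -0.25 (interval -0.34 to -0.16), and of -0.52 with spike-in scaling. The FLExDUX4 level was the lower one under both scalings. Of the 2727 genes with at least 1000 counts over both groups, 8.54% had a lower ratio. The last bases of Clcn1 overlap Fam131b on the other strand, which had 0 counts in FLExDUX4 and 1 in WT.

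Kcnj2 (ENSMUSG00000041695, chromosome 11, 111066164 to 111076821) had 769 counts in FLExDUX4 and 1040 in WT, or 59.3 and 56.0 CPM. This gave a ratio of 0.08 (interval -0.06 to 0.22), and of -0.19 with spike-in scaling, so that its direction depended on the scaling. A comparison of 2 genes within the same totals does not depend on scaling. FLExDUX4 muscle gave 2.11 counts of Clcn1 for each count of Kcnj2, and WT muscle gave 2.65. The difference of the 2 log2 ratios was -0.33 (interval -0.49 to -0.17). Such differences were common, since the interval left out 0 for 49.6% of the pairs of genes with at least 1000 counts (by a large-sample interval), and for 10 of the 15 pairs among the 6 excitability genes other than Scn4a and Kcna7.

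Scn4a (ENSMUSG00000001027, chromosome 11, 106318592 to 106353288) encodes the pore of the sodium channel of adult muscle, which carries the upstroke of the action potential. It had 104 counts in FLExDUX4 and 302 in WT, or 8.02 and 16.3 CPM. The ratio on the log2 scale was -1.02 (interval -1.36 to -0.70), with FLExDUX4 the lower group. Of the 6573 genes with at least 100 but fewer than 1000 counts over both groups, 2.10% had a lower ratio, and 8.08% were at least 1.5-fold lower. A single mouse could decide a total of this size, which was not examined here.

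A beta subunit of sodium channels did not have the same ratio as the pore. Scn4b, which encodes it, had 4384 counts in FLExDUX4 and 6031 in WT, with a log2 ratio of 0.06 (interval -0.0002 to 0.11). There were 19.97 counts of Scn4b for each count of Scn4a in WT and 42.2 in FLExDUX4, a difference of -1.08 (interval -1.42 to -0.75) in log2 ratio between the pore and the subunit. Of the 13 related sodium channel genes, 5 had enough counts to be compared, 4 of them above 0 and 1 below, with a median of 0.34 that rests on genes with few counts. With spike-in scaling 3 of the 5 were above 0 and 2 below. Of the 5, 1 was past 1.5-fold, Scn3a, with 28 and 12 counts, named after its values were seen. That fold was passed by 26.8% of all genes compared, and by 59.8% of those with fewer than 100 counts, where Scn3a lies.

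**Figure D2:**
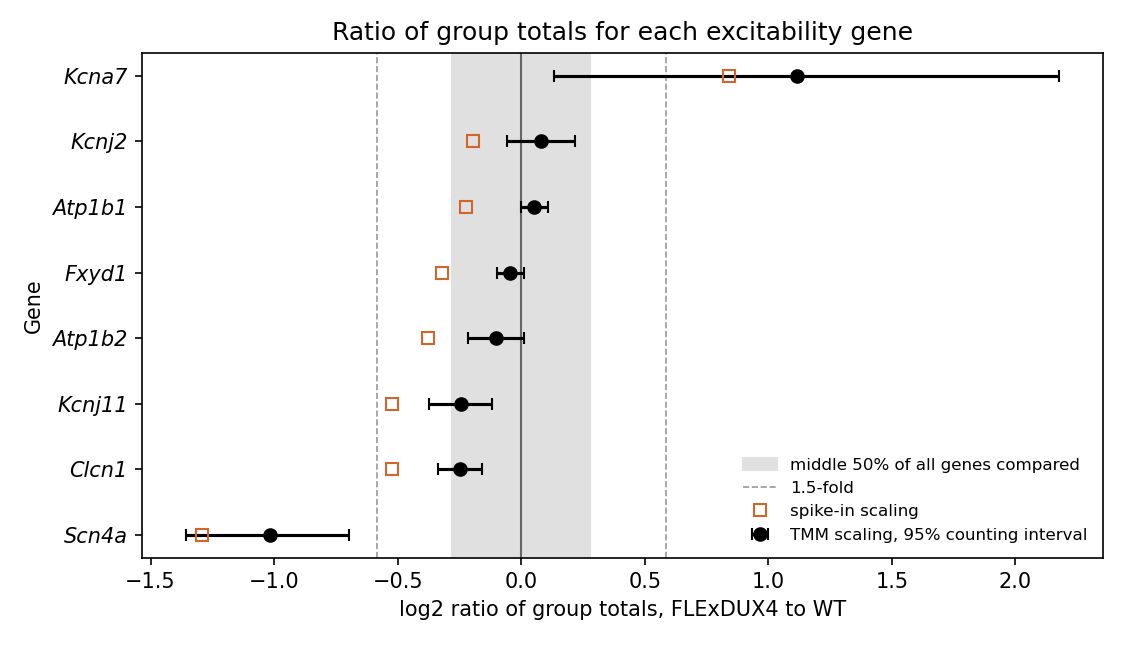
Log2 ratio of group totals, FLExDUX4 to WT, for each gene on the horizontal axis, with filled points for TMM scaling, bars for the 95% counting interval and open squares for spike-in scaling. The grey band is the middle 50% of all genes compared (-0.28 to 0.28) and dashed lines mark 1.5-fold, with Scn4a (-1.02) and Kcna7 (1.12) outside them and the other 6 genes between them.

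Kcnj11 (ENSMUSG00000096146, chromosome 7, 46093953 to 46100764) encodes the pore of the potassium channel that opens when ATP is low and so couples excitability to fuel. It had 778 counts in FLExDUX4 and 1319 in WT, or 59.96 and 71.1 CPM. On the log2 scale the ratio was -0.24 (interval -0.37 to -0.12), and 8.76% of genes with at least 1000 counts had a lower one. The level was lower in FLExDUX4, by nearly the same factor as for Clcn1, and the difference between these 2 ratios was -0.003 (interval -0.16 to 0.15). Abcc9, which encodes the sulfonylurea receptor that partners Kcnj11 in skeletal muscle and heart, had 1690 counts in FLExDUX4 and 2569 in WT, with a ratio of -0.09 (interval -0.18 to 0.001).

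Between the 2 inward rectifier members, Kcnj2 had 0.988 counts for each count of Kcnj11 in FLExDUX4 and 0.788 in WT, a difference of 0.33 (interval 0.14 to 0.51) in log2 ratio. Of the 15 related inward rectifier and sulfonylurea receptor genes, 6 were compared, 2 above 0 and 4 below, with a median of -0.10. With spike-in scaling 1 was above 0 and 5 below. Kcnj12, a close relative of Kcnj2, had 251 and 318 counts and a ratio of 0.18 (interval -0.07 to 0.42). Kcnj8, the ATP-sensitive channel of pericytes and vascular muscle, had 105 and 162 counts and a ratio of -0.11 (interval -0.48 to 0.25). With TMM scaling, Kcnj3, with 16 and 4 counts, and Kcnj13, with 5 and 22, were past 1.5-fold, both named after their values were seen. Past that fold were 26.8% of all genes compared, and 59.8% of those with fewer than 100 counts, where both lie.

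Kcna7 (ENSMUSG00000038201, chromosome 7, 45405653 to 45409763) encodes a voltage-gated potassium channel found mainly in skeletal muscle and heart. It had 23 counts in FLExDUX4 and 15 in WT, or 1.77 and 0.808 CPM. This gave a log2 ratio of 1.12 (interval 0.13 to 2.18), with FLExDUX4 the higher group. With so few counts, large ratios were common. Of the 4096 genes with fewer than 100 counts, 28.8% were at least 1.5-fold higher in FLExDUX4, and 85.6% had a lower ratio than Kcna7.

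Some relatives of Kcna7 were also higher. Kcna5, a channel of vascular smooth muscle and skeletal muscle, had 102 counts in FLExDUX4 and 66 in WT, with a ratio of 1.14 (interval 0.68 to 1.61). Kcna1, which in muscle tissue is also a channel of motor axons, had 67 and 57 counts and a ratio of 0.75 (interval 0.22 to 1.29). Of the 8 Kcna genes in the lists, grouped after their values were seen, 5 were compared, and 3 of these were at least 1.5-fold higher and 1, Kcna6, with 8 and 19 counts, at least 1.5-fold lower. The other one compared, Kcna2, had 57 and 79 counts and a ratio of 0.05 (interval -0.47 to 0.56). Over all genes, 13.2% were at least 1.5-fold higher and 13.5% at least 1.5-fold lower. Under 100 counts, where Kcna7 and Kcna6 lie, these shares were 28.8% and 31.0%. At 100 counts up to 1000, where Kcna5, Kcna1 and Kcna2 lie, they were 8.64% and 8.08%. With spike-in scaling 2 of the 5 Kcna genes were at least 1.5-fold higher, since Kcna1 then had a ratio of 0.47. Kcna7 and Kcna5 had nearly the same ratio, with a difference of -0.01 whose interval, -1.13 to 1.14, was wide.

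Vascular smooth muscle and pericyte markers had summed levels of 355 CPM in FLExDUX4 and 327 CPM in WT, with 5 of 5 ratios above 0, from 0.02 to 0.49. The interval left out 0 for 2 of the 5, Acta2 and Tagln, against 41.1% of all genes compared. With spike-in scaling 2 of the 5 were above 0. Schwann cell markers, which accompany motor axons, had 2 of 4 ratios above 0 and summed levels of 88.5 and 86.4 CPM. Their part in the Kcna values was not tested.

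The abundant potassium channels lay closer to equality. Kcnc1 and Kcnc4 encode fast voltage-gated channels, and had 970 and 840 counts in FLExDUX4 against 1550 and 1098 in WT. Their ratios were -0.16 (interval -0.28 to -0.04) and 0.13 (interval -0.001 to 0.26), a difference of -0.29 (interval -0.47 to -0.11). Kcnma1, the large-conductance calcium-activated channel, had 603 and 989 counts and a ratio of -0.20 (interval -0.35 to -0.05). Of the 34 potassium channel genes listed, 21 were compared, 13 above 0 and 8 below, with a median of 0.05. With spike-in scaling 7 were above 0 and 14 below, with a median of -0.23. With TMM scaling 5 of the 21 were at least 1.5-fold higher and 1 at least 1.5-fold lower, against 13.2% and 13.5% of all genes. Among genes with fewer than 100 counts these shares were 28.8% and 31.0%. Besides Kcna5 and Kcna1, those at least 1.5-fold higher were Kcnk6 (25 and 8 counts), Kcnk1 (11 and 6) and Kcnn3 (30 and 20), named after their values were seen. Kcnn3, a small-conductance calcium-activated channel that reappears in denervated muscle, had a ratio of 1.09 (interval 0.24 to 1.995).

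**Figure D3:**
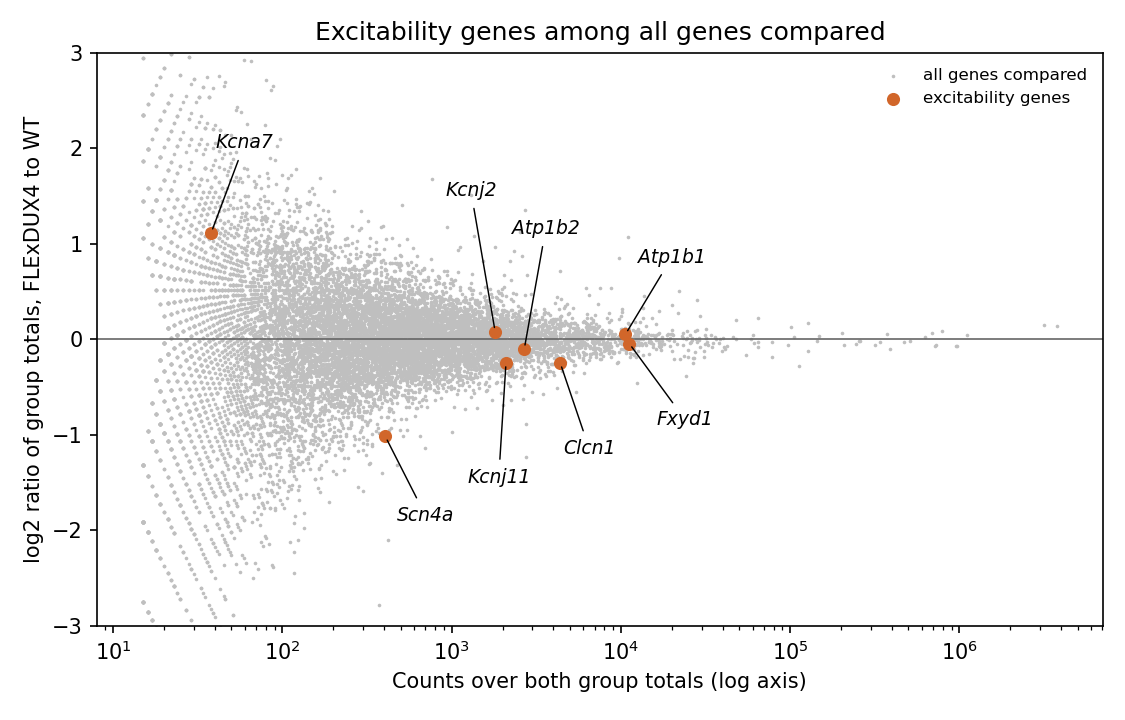
Log2 ratio of group totals, FLExDUX4 to WT, against the counts over both totals (log axis) for the 13396 genes compared (grey) and the 8 excitability genes (orange), with 194 genes beyond ±3 not drawn. Ratios spread more widely where counts are few, and Scn4a, at 406 counts, lies near the lower edge while Kcna7, at 38 counts, lies inside the spread.

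The sodium pump genes lay close to equality, and Fxyd1 and Atp1b1 were the most abundant of the 8 genes. Atp1b1 and Atp1b2 encode beta subunits, which carry the catalytic subunit to the membrane, and Fxyd1 encodes phospholemman, a small protein that holds the pump back until it is phosphorylated. Atp1b1 (ENSMUSG00000026576, chromosome 1, 164437109 to 164458355) had 4480 counts in FLExDUX4 and 6175 in WT, or 345 and 333 CPM, with a log2 ratio of 0.05 (interval -0.002 to 0.11).

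Atp1b2 (ENSMUSG00000041329, chromosome 11, 69599736 to 69605942) had 1060 counts in FLExDUX4 and 1628 in WT, or 81.7 and 87.7 CPM, with a ratio of -0.10 (interval -0.22 to 0.01). Fxyd1 (ENSMUSG00000036570, chromosome 7, 31051678 to 31057199) had 11218 counts over both groups, of which 4533 in FLExDUX4, and levels of 349 CPM in FLExDUX4 and 360.2 CPM in WT, with a ratio of -0.04 (interval -0.10 to 0.01). With spike-in scaling the ratios were -0.22 for Atp1b1, -0.38 for Atp1b2 and -0.32 for Fxyd1, so that the direction of Atp1b1 depended on the scaling. The end of Atp1b1 overlaps Nme7 on the other strand, which had 13 and 31 counts.

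The balance of the beta subunits differed by a small amount, with 4.23 counts of Atp1b1 for each count of Atp1b2 in FLExDUX4 and 3.79 in WT, a difference of 0.16 (interval 0.03 to 0.28) in log2 ratio. Atp1b1 also had the higher ratio beside Fxyd1, with a difference of 0.10 (interval 0.02 to 0.18), whereas the interval of the difference between Atp1b2 and Fxyd1, -0.18 to 0.07, held 0.

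Atp1b3, a further beta subunit, had 261 and 380 counts and a ratio of -0.02 (interval -0.26 to 0.21). Fxyd6, a relative of Fxyd1, had 660 and 1021 counts and a ratio of -0.11 (interval -0.26 to 0.03). Of the 12 related pump genes, 9 were compared, 4 above 0 and 5 below, with a median of -0.02. With spike-in scaling 1 was above 0 and 8 below. Fxyd7, with 26 and 20 counts, was the 1 gene past 1.5-fold with TMM scaling and was named after its values were seen. Past that fold were 26.8% of all genes compared, and 59.8% of those with fewer than 100 counts, where Fxyd7 lies.

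Chloride channel relatives of Clcn1 showed no common direction with TMM scaling. Of 8 genes of the CLC family, 6 were compared, 4 above 0 and 2 below, with a median of 0.17 and none past 1.5-fold. With spike-in scaling 1 was above 0 and 5 below, with a median of -0.10. Clcn3, an exchanger of endosomes, had 1109 counts in FLExDUX4 and 1844 in WT and a ratio of -0.22 (interval -0.33 to -0.11), close to that of Clcn1. Clcn4, another endosomal exchanger, had 529 and 652 counts and a ratio of 0.22 (interval 0.05 to 0.38), which became -0.06 with spike-in scaling. Clcn7, of lysosomes, had 150 and 191 counts and a ratio of 0.17 (interval -0.15 to 0.48), and Clcn5 had 61 and 69 counts and a ratio of 0.34 (interval -0.18 to 0.86).

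**Figure D4:**
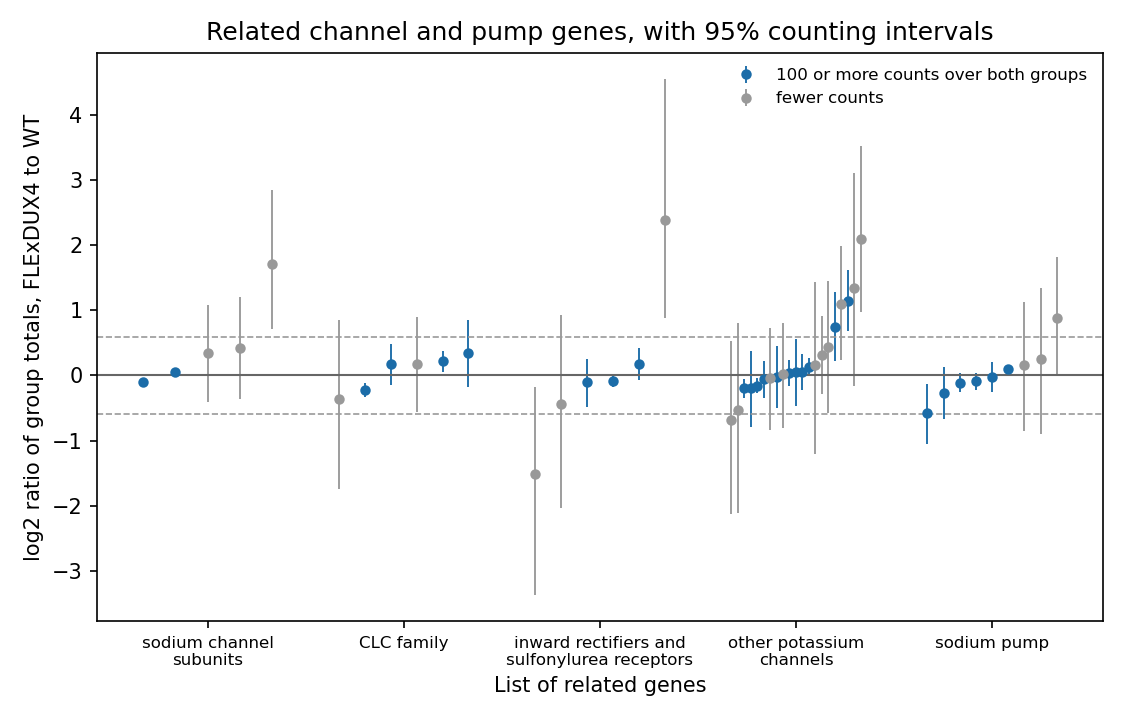
Log2 ratio of group totals, FLExDUX4 to WT, with 95% counting intervals for the 47 related genes compared, by list, in blue where both totals together held 100 or more counts and in grey otherwise. Dashed lines mark 1.5-fold, and of the 26 genes in blue Kcna1 and Kcna5 lie outside them.

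Over all 5 lists, 47 of 82 related genes were compared. Of these, 27 had a ratio above 0 and 20 below, against 49.9% and 50.1% of all genes, with a median of 0.05. Past 1.5-fold were 8 higher and 2 lower, against 13.2% and 13.5% of all genes, and 6 of the 8 and both of the lower ones had fewer than 100 counts. Differences in ratio between pairs of genes do not depend on scaling, and pairs with a partner outside the 8 genes were chosen after values were seen.

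Markers of other cell types differed between the group totals as well. Adipocyte markers had summed levels of 147 CPM in FLExDUX4 and 85.3 CPM in WT, with 3 of 4 ratios above 0, and red cell markers had 1113 and 888 CPM, with 4 of 4 above 0. With spike-in scaling 3 of 4 were above 0 in each of these lists. Fibroblast markers had 1221 and 1110.5 CPM, with 4 of 4 above 0, but with spike-in scaling 1 of 4 was above 0. The interval left out 0 for 1 of them, Col1a1, at 0.53, against 41.1% of all genes compared. Endothelial markers had 153 and 178 CPM, with 1 of 4 above 0. The interval lay below 0 for 2 of them, Kdr, at -0.56, and Tek, at -0.63, against 20.6% of all genes. Leukocyte markers had 8.94 and 9.54 CPM, with 1 of the 3 compared above 0. Their part in the values of the 8 genes was not tested. The summed level of the skeletal myofiber markers had a log2 ratio of -0.005, with 2 of 8 ratios above 0 and 6 below, from -0.19 to 0.05. With spike-in scaling 0 of the 8 were above 0. Scaled to the sum of these markers, Scn4a had a ratio of -1.01 and Clcn1 of -0.24.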

How the data were processed

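Frozen quadriceps RNA of 6 mice was sequenced at the 3′ end with QuantSeq FWD. Per the methods, the authors removed adapters (cutadapt 1.16), used STAR 2.5.3a for alignment to GRCm38 with ERCC and SIRV sequences, counted features (featureCounts 1.6.2 in the submitters' processing notes) and compared the genotypes with DESeq2. The deposited counts used here are raw counts of 52649 features summed over each genotype. The table also has 6 columns of counts of single samples whose names match no label. They were not used, so the planned edgeR test, which needs them, was not run. Its columns of the authors' comparison (mean, fold change, standard error, statistic, p-values) were not used.

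TMM factors for both totals came from edgeR 4.0.16 under R 4.3.3 and were computed on the 13396 mouse genes kept by filterByExpr (minimum count 10, minimum total 15), leaving out 99 spike-ins. Log2 ratios used a pseudocount of 0.5. Intervals (95%) are Clopper-Pearson for ratios, Poisson for CPM and conditional odds ratio for pairs (scipy 1.17.1), and cover counting error only. Scripts were tested on simulated data. Coordinates are from GENCODE M21, whose lowest coordinate equals the deposited position for all 8 genes. Promoters matched 6 of the 8 genes. Strand use in counting is not given in the sources used here.

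The members and lists were chosen with earlier results of these data known. All 8 members were named. In each list, the genes with at least 100 counts over both groups (the 4 with the most counts if more had that many) and any of them past 1.5-fold were named, and others are marked in the text. Some genes that this rule names are not reported here. With 2 totals, genes could not be ranked by likeness of pattern.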

Additional observations from a re-analysis of the deposited data

How the results depend on the processing

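No paired analysis was possible because the deposited columns of single mice carry no name or number that ties them to a label, and for the same reason the edgeR and DESeq2 tests and leaving out each replicate in turn were not run. The 8 genes' ratios kept their direction and stayed within the intervals given with TMM under size factors (RLE), upper quartile, gene totals, myofiber markers (chosen after seeing the data), both other filters and pseudocounts of 1 and 5. Spike-in scaling, which lowers every ratio alike, gave -0.52 for Clcn1, -0.19 for Kcnj2, -0.52 for Kcnj11, -0.22 for Atp1b1, -0.38 for Atp1b2 and -0.32 for Fxyd1, left 1 of the 8 genes above 0, and turned the direction of Kcnj2 and Atp1b1. Of the 8 intervals, 0 then lay above 0 and 7 below, against 1 and 3 with TMM. With upper quartile, gene totals or at least 10 counts in each total 5 lay below, with Atp1b2 and Fxyd1 added, and with myofiber markers 2 lay above, with Atp1b1 added. Why spike-in RNAs took a larger share of FLExDUX4 reads was not tested. Among all genes it gave 1048 at least 1.5-fold higher, 3174 lower and 3376 above 0, against 1771 higher and 1813 lower with TMM, with 1017 intervals above 0 and 6308 below, and among related genes 6 at least 1.5-fold lower, 13 above 0 and 34 below. With no filter, which adds genes with few counts, 4121 genes were at least 1.5-fold higher, 4959 lower and 10322 below 0, and 15 and 8 related genes were higher and lower. With at least 10 counts in each total, 1305 genes were at least 1.5-fold higher and 1047 lower, and 5 and 1 related genes higher and lower. At 2-fold, 802 genes were higher and 995 lower, and 6 related genes were higher and 1 lower. Depth limits Kcna7 most, at 38 counts.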

Other observations

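Of the 82 related genes, 19 had 0 counts in both groups. A count of 0 allows up to 0.231 CPM in FLExDUX4 and 0.162 CPM in WT at a limit of 3 counts. Fxyd5, a pump regulator of epithelia outside the naming rule and chosen after its values were seen, had 59 counts in FLExDUX4 and 127 in WT, a log2 ratio of -0.58 (interval -1.06 to -0.13).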
